A study of Mus musculus with 35 samples.

Results

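Resting quadriceps muscle of untreated control mice was profiled on 8 arrays, taken from a series of 35. The members are the arrays whose titles call the animal a control mouse, 3 of experiment 1 and 5 of experiment 2; no measured value entered that rule. All 8 animals were female and 2 months old, and each array held total RNA of the snap-frozen quadriceps of 1 mouse. The labels give the controls no genotype, strain or treatment beyond the word control, and they do not mention a vehicle injection. The other arrays came from Mstn-null mice and from mice given 1 or 4 doses of ActRIIB-Fc, a soluble decoy form of the activin type IIB receptor, and they enter no value below.

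The quadriceps is a locomotor muscle of the thigh. In the mouse it is built mostly from fast-twitch fibres, which contract quickly and draw on glycogen, with smaller numbers of slow-twitch fibres that burn fat in mitochondria. Each fibre type has its own set of myosin, troponin and calcium pump genes, so the mixture of fibres in a sample can be read in part from these transcripts. A whole muscle also holds capillaries, connective tissue, resident macrophages, nerve, blood and, between or beside the fibres, fat cells.

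The deposited values are log2 expression values, so a difference of 1 is a 2-fold difference. Experiment 1 and experiment 2 lay on different scales, with a median over genes of 4.79 and 6.37, and levels were therefore ranked only within an experiment, over 19938 genes. A deviation below is a gene's log2 value in an animal minus that gene's mean in its experiment. Because each animal is 1 array, a difference between animals and a difference between arrays cannot be told apart, and the number of arrays limits the precision. Brightness also depends on the probes of a gene, so the order of genes is an order of signal and not of transcript number. Within experiment 1 the arrays correlated across genes between 0.985 and 0.994, and within experiment 2 between 0.993 and 0.996. Control replicate 2 of experiment 1 stood apart: it had the narrowest range of values (interquartile range 2.47, against 2.65 and 2.74) and was the lowest of its 3 arrays for 54.9% of the 9356 genes above the median level in both experiments, while over all 19938 genes it was the highest for 43.9% and the lowest for 35.3%. Control replicate 4 of experiment 2 had the widest range there (2.65, against 2.50 to 2.57 in the others) and was the highest of its 5 arrays for 36.7% of the same genes.

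The labels were checked first. Xist, the RNA of the inactive X chromosome, had values of 7.53, 7.54 and 8.20 in experiment 1, and its 5 values of experiment 2 ran from 9.99 to 10.30; its mean was above that of 93.4% and 96.3% of genes. The Y-linked genes Eif2s3y, Uty and Kdm5d had no value above 2.98 in experiment 1 or above 4.29 in experiment 2, near the bottom of the range. Mstn, the secreted inhibitor of muscle growth that the study targets elsewhere, was measured at 7.60, 6.77 and 7.68 in experiment 1 and at 10.02, 9.92, 10.17, 10.21 and 9.84 in experiment 2, above 90.5% and 95.9% of genes. Its lowest control value in experiment 1 was again on replicate 2.

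The brightest transcripts of resting quadriceps were those of the fast contractile apparatus and of glycolytic energy supply. Of the 199 genes in the top 1% by mean level in each experiment (0.998% of genes in each), 155 were the same in both, which is 77.9% of each list and 0.777% of all genes. The last gene inside this limit had a mean of 9.53 in experiment 1 and 11.44 in experiment 2, and the next gene outside had 9.52 and 11.44. Of 17 measured genes of the fast contractile apparatus 15 were among the 155. So were 16 of 25 genes of the sarcomere and Z-disc common to all fibres, 15 of 22 genes of glycolysis, glycogen breakdown and creatine kinase, 19 of 57 genes of oxidative phosphorylation and 7 of 42 cytoplasmic ribosomal protein genes. Both measured genes of the mitochondrial genome, COX2 and ND3, were among them, and of 16 slow contractile genes the number was 0.

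Acta1, the skeletal muscle actin of the thin filament, had the highest mean rank over both experiments among rows with 1 gene symbol; in experiment 2 the row annotated as Baiap2l1, described below, was brighter. It was measured at 12.02, 11.99 and 12.04 in experiment 1 and at 14.21, 14.09, 14.07, 14.02 and 14.06 in experiment 2. Atp2a1, the calcium pump of fast fibres, was measured at 11.92, 11.96 and 11.90 and at 14.12, 14.03, 14.05, 14.06 and 14.04. These 2 genes had nearly the same value in every animal of an experiment, within 0.19 log2 units.

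Myh4, the myosin heavy chain of the fastest fibres, type IIB, was measured at 11.62, 11.76 and 11.66 in experiment 1 and at 13.86, 13.70, 13.76, 13.75 and 13.81 in experiment 2. The other adult fast heavy chains were bright too, Myh1 of type IIX fibres with a mean of 10.97 ± 0.15 (SD, n = 3) and 12.99 ± 0.08 (SD, n = 5), and Myh2 of type IIA fibres with 10.65 ± 0.30 (SD, n = 3) and 12.55 ± 0.10 (SD, n = 5). All 3 lay in the top 1% of both experiments, while Myh7, the slow heavy chain, had a higher mean than 97.9% and 97.7% of genes. How much of each myosin the muscle held was not measured, since each gene has its own probes.

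Ckm, the muscle creatine kinase that buffers ATP, had a mean of 11.83 ± 0.04 (SD, n = 3) in experiment 1 and 13.83 ± 0.10 (SD, n = 5) in experiment 2. The glycolytic enzymes Aldoa, Eno3 and Ldha and the glycogen phosphorylase Pygm were all among the 20 brightest genes, with means from 11.16 to 11.72 in experiment 1 and from 13.37 to 13.80 in experiment 2. Parvalbumin (Pvalb), the calcium buffer of fast fibres, had 11.70 ± 0.08 (SD, n = 3) and 13.67 ± 0.05 (SD, n = 5). The alpha-actinin of fast Z-discs (Actn3), the fast troponins Tnnc2 and Tnnt3, the tropomyosin Tpm1, the calcium store protein Casq1, the filament genes Ttn and Neb, the carbonic anhydrase Car3 and the mitochondrial ADP/ATP carrier Slc25a4 were also among these 20, as was 1 row of uncertain identity.

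That row is annotated as Baiap2l1 and lay at 11.85, 12.10 and 11.91 in experiment 1 and 14.40, 14.29, 14.32, 14.39 and 14.34 in experiment 2. Its accessions, and those of another row at means of 9.85 and 11.74, also include ribosomal RNA, whereas the row that carries only the gene's own transcript had means of 3.26 and 5.29, above 20.8% and 26.7% of genes. The bright row is therefore not read as Baiap2l1.

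**Figure D1:**
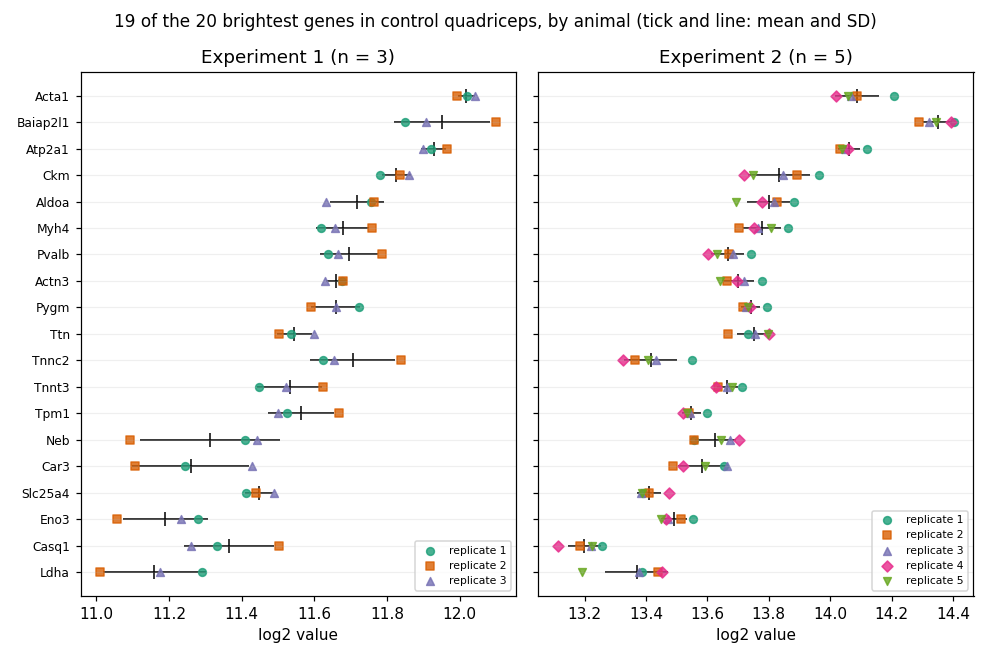
Log2 value of 19 of the 20 genes with the highest mean rank of level in control quadriceps, one marker per animal, with experiment 1 (n = 3) and experiment 2 (n = 5) on axes of their own; the tick and the line are the mean and SD. Values of a gene lie close together in each experiment, and the row annotated as Baiap2l1 also matches ribosomal RNA.

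Markers of other cells and tissues were set beside these levels. Endothelial genes had a median percentile of level of 81.6 in experiment 1 and 79.6 in experiment 2, and extracellular matrix genes 88.4 and 81.4. Macrophage and myeloid genes lay near the middle, at 52.2 and 49.8, and lymphocyte genes low, at 25.8 and 27.8, with 0 of 13 above the median in both experiments. Cell cycle genes lay at 32.1 and 35.0, and markers of liver and plasma at 26.6 and 22.1. Satellite cell and myogenic genes lay at 56.4 and 60.5. The defining muscle genes were thus at the top of the range and those of lymphocytes and liver in its lower part.

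The spread between animals was ranked next. Over the 9356 genes above the median in both experiments, the median SD was 0.167 in experiment 1 and 0.112 in experiment 2, and the Spearman correlation of the SDs across genes was 0.156. The top 5% by SD held 468 genes in each experiment, from an SD of 0.441 and 0.228 upward; the next gene outside had the same SD to 3 digits in experiment 1 and in experiment 2. Of these, 119 genes were in both lists, 25.4% of each and 1.27% of the genes ranked. Among the 119, replicate 2 of experiment 1 was the lowest of its 3 arrays for 87 genes, against 54.9% of the genes ranked. Replicate 4 of experiment 2 was the highest of its 5 for 62, against 36.7% of the genes ranked. Among the top 5% by SD in experiment 2 its share was 46.2%. Without replicate 2 of experiment 1, 103 genes were shared and 59 of the 119 remained; without replicate 4 of experiment 2, 99 were shared and 85 remained.

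**Figure D2:**
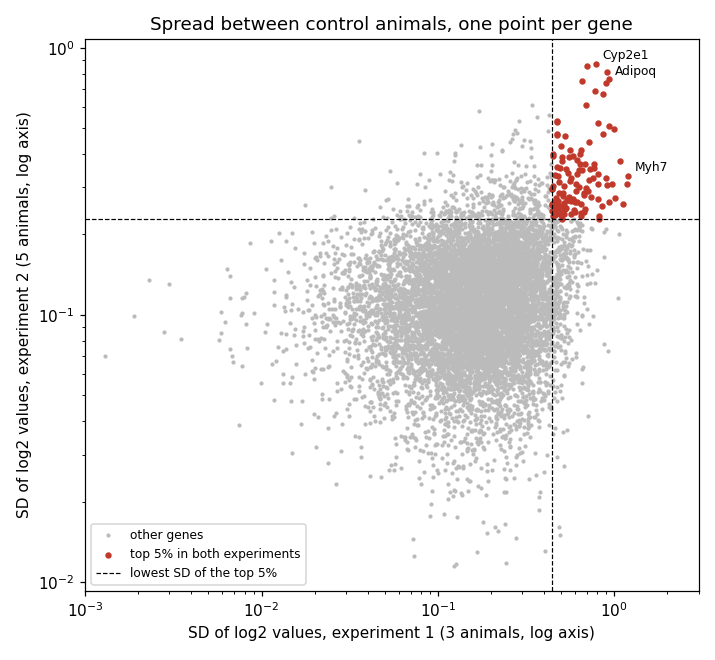
SD of the log2 values between control animals, one point per gene above the median level in both experiments, with experiment 1 (3 animals) on the x axis and experiment 2 (5 animals) on the y axis, both log axes. The dashed lines are the lowest SD of the top 5%, 0.441 and 0.228, and the 119 genes beyond both are in red.

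The genes that varied most in both experiments included many of fat cells. Of 19 measured adipocyte genes, 11 were in the top 5% by SD in experiment 1, 13 in experiment 2 and 10 in both, where the top 5% is 5% of genes by construction. Adipoq, the hormone adiponectin made by fat cells, ranked first among genes with a name of their own. It was measured at 6.73, 5.15 and 6.79 in experiment 1 and at 7.82, 8.10, 8.91, 9.66 and 8.08 in experiment 2. Replicate 4 of experiment 2 was highest and replicate 2 of experiment 1 lowest, with a span of 3.12-fold in experiment 1 and 3.58-fold in experiment 2. Without these arrays the spans were 1.04-fold and 2.14-fold.

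Cidec, a protein of the lipid droplet surface, was measured at 7.49, 5.86 and 7.19 and at 7.61, 7.93, 8.63, 9.22 and 7.79. Pck1, which makes the glycerol backbone of stored fat, was measured at 8.05, 6.52 and 7.49 and at 7.94, 8.00, 8.80, 9.48 and 7.96. Cyp2e1, a cytochrome P450 gene, had the largest SD of experiment 2 among the genes named here, 0.87, with values of 8.06, 6.63 and 7.92 and 9.22, 9.09, 10.42, 11.18 and 9.77. In each of these genes replicate 4 stood highest and replicate 3 next in experiment 2, and replicate 2 stood lowest in experiment 1.

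The same order was seen in Pde3b, the phosphodiesterase through which insulin restrains fat breakdown (6.36, 6.12, 7.14, 8.14 and 6.49 in experiment 2), and in Prkar2b, a regulatory subunit of protein kinase A (6.37, 6.31, 7.22, 8.37 and 6.67). Car5b, Hacd2, Tmem45b, Mgst1 and Ifi27l2a, also among the 20 named genes of largest spread, had replicate 4 highest too. Agpat2, an enzyme of triglyceride synthesis, had replicate 4 highest and replicate 5 lowest (7.67, 8.02, 7.95, 8.56 and 7.27).

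Averaged over the 19 adipocyte genes, the deviation was 0.25, -0.52 and 0.27 in experiment 1 and -0.33, -0.09, 0.09, 0.46 and -0.13 in experiment 2. Replicate 4 was highest for 15 of the 19 genes, against 36.7% of genes above the median, and replicate 1 was lowest for 13, against 26.5%. Among the top 5% by SD in experiment 2 these 2 shares were 46.2% and 37%. In experiment 1 replicate 2 was lowest for 17 of the 19, against 54.9%. The range of the list over animals was 0.79 in experiment 2 and 0.42 without replicate 4; in experiment 1 it was 0.79 and 0.02 without replicate 2. The number of adipocyte genes in the top 5% of both experiments was 4 without replicate 2 of experiment 1 and 7 without replicate 4 of experiment 2. In a bulk sample, fewer cells of a type and less RNA per cell cannot be told apart.

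Genes of brown fat, the heat-producing form, were looked at beside those of white fat. Ucp1, the uncoupling protein that defines brown fat, was measured at 4.81, 4.69, 5.21, 6.80 and 4.78 in experiment 2 and at 3.43, 3.45 and 3.16 in experiment 1. Cidea, a lipid droplet gene of brown fat that is also in the adipocyte list, was measured at 5.34, 5.29, 5.80, 6.85 and 5.29 in experiment 2. Replicate 4 was the highest array for both, and in experiment 1 the 3 arrays of Ucp1 lay within 0.29 log2 units. Over the 6 measured genes of the list replicate 4 was highest for 3, replicate 1 for 2 and replicate 2 for 1. Cox8b, a subunit of cytochrome oxidase, was lowest in replicate 4 (12.47, 12.21, 12.29, 11.96 and 12.00), and Dio2, which activates thyroid hormone, was highest in replicate 1 (6.31, 5.84, 5.88, 5.82 and 5.70). The range of the list in experiment 2 was 0.61, and 0.19 without replicate 4. Of these 6 genes 0 were in the top 5% by SD of both experiments, and 2 lay above the median level in both, Cox8b and Ppargc1a, which muscle fibres also express. The labels do not say which fat lay with the muscle at dissection.

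Slow-twitch fibre genes were the second set that varied widely. Of 16 measured slow contractile genes, 12 were in the top 5% by SD in experiment 1, 7 in experiment 2 and 7 in both, while of 17 fast contractile genes the numbers were 0, 0 and 0. Myh7 was measured at 9.34, 7.49 and 9.74 in experiment 1, a span of 4.76-fold that was 1.32-fold without replicate 2. In experiment 2 it was measured at 10.12, 10.52, 10.75, 11.02 and 10.68, a span of 1.86-fold. Atp2a2, the calcium pump of slow fibres and of the heart, was measured at 9.59, 8.38 and 9.90 and at 10.76, 11.19, 11.21, 11.71 and 11.24. Tnni1, the slow troponin I, was measured at 8.15, 6.54 and 8.54 and at 9.40, 9.72, 9.84, 9.93 and 9.71. For each of the 3 genes replicate 2 was lowest in experiment 1, and in experiment 2 replicate 1 was lowest and replicate 4 highest.

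The slow list as a whole deviated by 0.24, -0.75 and 0.51 in experiment 1 and by -0.24, -0.07, 0.05, 0.30 and -0.04 in experiment 2. Replicate 2 of experiment 1 was lowest for 14 of 16 genes and replicate 3 highest for 13, against 54.9% and 35.7% of genes above the median. In experiment 2 replicate 4 was highest for 14, against 36.7%, and replicate 1 lowest for 12, against 26.5%. These 2 shares were 46.2% and 37% among the top 5% by SD in experiment 2. The range in experiment 1 was 1.26 and fell to 0.27 without replicate 2, and the range in experiment 2 was 0.54 and 0.29 without replicate 4. Without replicate 2 of experiment 1, 1 slow gene remained in the top 5% of both experiments, and without replicate 4 of experiment 2 the number was 4.

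The fast contractile list moved far less. Its deviations were -0.01, 0.03 and -0.02 in experiment 1. In experiment 2 they were 0.05 in replicate 1, -0.05 in replicate 4 and closer to 0 in the others, and replicate 1, the lowest for slow genes, was highest for 13 of 17 fast genes, against 12.9% of genes above the median. With quantile normalization within each experiment the deviations of replicates 1, 2 and 4 were 0.03, 0.02 and -0.05, so replicate 1 hardly differed from replicate 2. The 25 sarcomere and Z-disc genes common to all fibres lay between these lists, with ranges of 0.33 in experiment 1 and 0.14 in experiment 2. Replicate 2 of experiment 1 was lowest for 22 of the 25, against 54.9% of genes above the median. In experiment 2 replicate 1 was lowest for 13, against 26.5%, and replicate 4 highest for 12, against 36.7%. The fast and slow lists also differed in level. The median percentile was 99.9 in both experiments for fast genes, and 95.3 and 94.0 for slow genes. The part of level in the smaller spread of fast genes was not tested.

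Genes of fatty acid uptake and oxidation, the fuel supply of slow fibres, deviated by 0.12, -0.33 and 0.21 in experiment 1 and by -0.14, -0.07, 0.04, 0.17 and 0.01 in experiment 2. Replicate 4 was highest for 16 of 22 genes, against 36.7% of genes above the median, and replicate 2 of experiment 1 lowest for 19, against 54.9%. The range was 0.54 in experiment 1 and 0.09 without replicate 2, and in experiment 2 it was 0.31 and 0.18 without replicate 4. In the deposited values the animals of each experiment had the same order for this list as for the slow list, with which it shares no gene. Cd36, which carries fatty acids into the fibre, was measured at 9.10, 8.13 and 9.30 and at 11.69, 11.71, 11.84, 12.19 and 12.03. Oxidative phosphorylation genes varied less, with deviations from -0.11 to 0.06 in experiment 1 and from -0.07 to 0.04 in experiment 2.

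Blood RNA was followed in rows that read several haemoglobin genes at once. The alpha globin row (Hba-a1 and Hba-a2) lay at 9.79, 8.12 and 10.71 in experiment 1 and at 10.72, 11.24, 11.32, 11.55 and 10.86 in experiment 2. The beta globin row lay at 10.68, 9.65 and 11.36 and at 11.04, 11.70, 11.60, 12.13 and 11.10. In both rows replicate 2 of experiment 1 was lowest and replicate 3 highest, and in experiment 2 replicate 1 was lowest and replicate 4 highest, the order of the extremes of the slow list. Endothelial genes deviated by 0.17, -0.25 and 0.08 in experiment 1, and by at most 0.06 in experiment 2. In experiment 1 replicate 2 was lowest for 15 of the 18 genes, against 54.9% of genes above the median. Their range in experiment 1 was 0.42, and 0.09 without replicate 2. The part of blood, vessels and range of values in the slow and fat results was not tested.

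**Figure D3:**
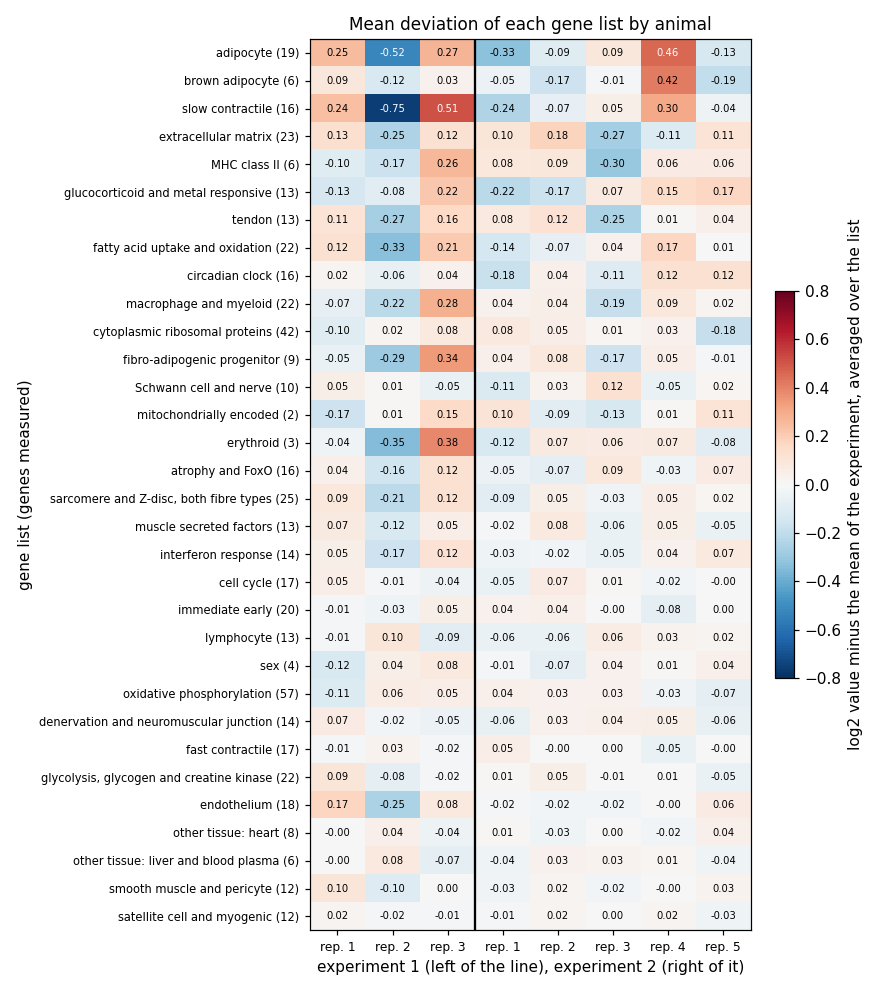
Mean deviation, in log2 units, of 32 gene lists (rows, with the number of genes measured) in each control animal (columns; 3 of experiment 1 left of the line and 5 of experiment 2 right of it), ordered by their range in experiment 2. Red is above and blue below the mean of the experiment; the adipocyte and slow contractile rows reach 0.46 and 0.30 in replicate 4, and fast contractile genes stay between -0.05 and 0.05.

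Connective tissue genes showed another order of animals. The 23 extracellular matrix genes deviated by 0.10, 0.18, -0.27, -0.11 and 0.11 in experiment 2, with replicate 3 lowest for 16 genes, against 13.9% of genes above the median, and replicate 2 highest for 13, against 20.1%. In experiment 1 they deviated by 0.13, -0.25 and 0.12, a range of 0.37 that was 0.01 without replicate 2. In experiment 2 the range was 0.45, and 0.29 without replicate 3. Col1a1, the alpha 1 chain of fibrillar collagen I, was measured at 9.38, 9.61 and 9.09 in experiment 1 and at 10.64, 10.54, 9.79, 9.74 and 10.55 in experiment 2. Replicates 3 and 4 were low in experiment 2, and in experiment 1 replicate 2 was the highest.

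Tendon genes followed a like order, with 0.08, 0.12, -0.25, 0.01 and 0.04 in experiment 2. Replicate 3 was lowest for 10 of 13, against 13.9% of genes above the median. Without that replicate their range was 0.11 in place of 0.37. In experiment 1 it was 0.42, and 0.05 without replicate 2. Tnmd, tenomodulin of tendon cells, was measured at 5.84, 5.53 and 5.89 and at 8.25, 8.50, 7.85, 8.24 and 8.34. Fmod, fibromodulin, which binds collagen fibrils, was measured at 8.11, 7.60 and 8.11 and at 9.72, 9.74, 9.16, 9.35 and 9.58. The 2 lists share Fmod and Thbs4.

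Macrophage and myeloid genes had replicate 3 of experiment 2 lowest for 16 of 22, against 12.4% of all genes, and replicate 3 of experiment 1 highest for 19, against 26% of all genes. Their deviations were 0.04, 0.04, -0.19, 0.09 and 0.02 in experiment 2 and -0.07, -0.22 and 0.28 in experiment 1. The range in experiment 2 was 0.27 and 0.07 without replicate 3, and in experiment 1 it was 0.50 and 0.15 without replicate 3. Cd74, the invariant chain of antigen presentation by MHC class II, was measured at 7.56, 7.32, 6.66, 7.37 and 7.65 in experiment 2. H2-Ab1, a class II beta chain, was measured at 7.61, 7.56, 6.78, 7.51 and 7.60, again lowest in replicate 3. The range of the 6 class II genes was 0.39 and 0.03 without that replicate.

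Hormone, metal and clock genes followed other orders of animals. The 13 glucocorticoid and metal responsive genes deviated by -0.22, -0.17, 0.07, 0.15 and 0.17 in experiment 2 and by -0.13, -0.08 and 0.22 in experiment 1, where replicate 2 was at 0.01 with quantile normalization. Of them 3 were in the top 5% by SD in experiment 1, 6 in experiment 2 and 2 in both. Ddit4, a stress-induced inhibitor of the growth kinase mTORC1, was measured at 6.61, 7.52 and 8.02 and at 8.30, 8.79, 9.34, 8.71 and 9.35. Sgk1, a kinase induced by glucocorticoids, was measured at 8.96, 9.51, 9.64, 9.90 and 9.75 in experiment 2, with replicate 1 lowest.

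Metallothioneins bind zinc and copper and are switched on by metals and by glucocorticoids. Mt2 was measured at 6.80, 6.01 and 7.81 and at 9.41, 9.54, 9.12, 9.91 and 9.85, and Mt1 at 7.37, 7.44 and 8.22 and at 9.79, 9.76, 9.88, 10.12 and 10.12. In experiment 1 replicate 3 was highest for both genes, and in experiment 2 replicates 4 and 5 were above the others. Their deviations over the 8 animals correlated with r = 0.84 (exact permutation p = 0.0639, two-sided, adjusted p = 0.112) and did not pass. The 250 bases before each start, from RefSeq (GRCm38.p6), are shown because both genes are known targets of the metal sensing factor MTF1. Capitals mark matches to the core of its element, TGCGCNC or TGCACNC, on either strand. Mt1 lies at chr8:94178839-94179088 and Mt2 at chr8:94172368-94172617, both on the plus strand.
Mt1: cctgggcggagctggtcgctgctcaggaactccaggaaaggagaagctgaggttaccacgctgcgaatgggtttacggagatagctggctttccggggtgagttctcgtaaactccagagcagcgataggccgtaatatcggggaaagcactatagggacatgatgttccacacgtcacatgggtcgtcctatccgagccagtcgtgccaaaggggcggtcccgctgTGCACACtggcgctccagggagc
Mt2: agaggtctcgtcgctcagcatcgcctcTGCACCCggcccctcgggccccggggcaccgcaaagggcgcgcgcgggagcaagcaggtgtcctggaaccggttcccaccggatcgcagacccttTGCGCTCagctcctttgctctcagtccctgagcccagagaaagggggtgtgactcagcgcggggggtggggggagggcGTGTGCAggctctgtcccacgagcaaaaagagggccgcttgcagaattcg
In these windows there was 1 match before Mt1 and 3 before Mt2, where the last is on the minus strand. Bases outside the windows were not searched, so the counts are not those of the whole promoters. Of 32851 promoters of this length 21.4% held at least 1 match and 1.26% held 3 or more, so a single match is common.

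The circadian clock is a feedback loop in which Arntl and Clock switch on genes such as Dbp, Ciart and the Per genes through E-boxes, and these in part switch them off again. Of 16 measured clock genes, 2 were in the top 5% by SD in experiment 1 and 7 in experiment 2, with 0 in both. Ciart, a repressor of the loop, was measured at 6.30, 6.64 and 6.87 in experiment 1 and at 6.05, 7.25, 6.61, 6.88 and 7.38 in experiment 2. Dbp, an output factor, was measured at 7.95, 8.18 and 7.99 and at 8.05, 8.84, 8.31, 8.74 and 8.93. Per1, a repressor of the loop that also answers to glucocorticoids, was measured at 7.07, 7.20 and 7.26 and at 7.81, 8.31, 8.19, 8.49 and 8.91. In experiment 2 replicates 1 and 3 were the 2 lowest for all 3 genes, and replicate 5 was the highest for all 3.

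Arntl ran the other way, at 5.93, 5.36 and 5.62 in experiment 1 and at 8.41, 7.99, 8.33, 8.15 and 8.09 in experiment 2, where replicates 1 and 3 were the 2 highest. Its deviations were opposed to those of Dbp over the 8 animals (r = -0.76, exact permutation p = 0.00417, two-sided, adjusted p = 0.0146; Spearman's rho = -0.92, p = 0.0194, adjusted p = 0.0681). In experiment 2 only 1 of the 10 pairs of animals had the same order for both genes, and in experiment 1 the number was 0 of 3. Without the 2 arrays farthest from the median of Arntl, r was -0.87. With quantile normalization r was -0.83, and the call was lost (exact permutation adjusted p = 0.0506). Nr1d1, a repressor of Arntl, did not pass against it (r = 0.67, exact permutation p = 0.213, adjusted p = 0.213). That pair was listed as opposite phases of the clock, but its r was positive and its rho was -0.08. The labels do not give the hour at which each muscle was taken, and its part was not tested.

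The promoters of Ciart and Per1 are shown because these 2 genes had the largest SD of the clock list in experiment 2. Capitals mark the E-box CACGTG, which reads the same on both strands, in the 250 bases before the start, from RefSeq (GRCm38.p6). Ciart lies at chr3:95882229-95882478 on the minus strand and Per1 at chr11:69098699-69098948 on the plus strand.
Ciart: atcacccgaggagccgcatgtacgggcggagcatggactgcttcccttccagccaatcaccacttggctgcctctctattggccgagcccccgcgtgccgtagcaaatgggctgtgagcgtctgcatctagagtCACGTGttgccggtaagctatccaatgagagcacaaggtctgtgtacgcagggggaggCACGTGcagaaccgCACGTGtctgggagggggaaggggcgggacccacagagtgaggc
Per1: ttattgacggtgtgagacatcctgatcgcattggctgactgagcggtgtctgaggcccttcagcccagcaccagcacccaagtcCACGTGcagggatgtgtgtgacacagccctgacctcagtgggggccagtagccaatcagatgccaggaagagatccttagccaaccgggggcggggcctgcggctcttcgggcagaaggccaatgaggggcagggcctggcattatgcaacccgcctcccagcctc
Ciart held 3 matches and this start of Per1 held 1, while a second start of Per1 and the starts of Dbp, Per3 and Arntl held 0. Of 32851 promoters 6.02% held at least 1 match and 0.0609% held 3 or more. A match describes the letters and not binding.

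Ribosomal protein genes differed in 1 animal. Replicate 5 of experiment 2 was lowest for 36 of 42, against 27.3% of genes above the median, with a list deviation of -0.18 against 0.01 to 0.08 in the others; with quantile normalization it was -0.17 against -0.03 to 0.12. Replicate 5 was also lowest for 31 of 57 oxidative phosphorylation genes, against 27.3% of genes above the median, at -0.07. With quantile normalization replicate 4 was the lowest for the oxidative phosphorylation list, at -0.09, and replicate 5 was at -0.06. In these lists 0 ribosomal and 0 oxidative phosphorylation genes were in the top 5% by SD of both experiments.

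To see which genes varied together, the 468 most variable genes of experiment 2 were clustered by the correlation of their deviations over its 5 animals (average linkage, cut at a distance of 0.3). There were 9 groups of at least 15 genes, holding 356 genes, and 112 genes were in none. With 5 animals, genes can group with no shared pattern, and the clustering used these values, so the groups are a description. The animals of experiment 1 were not used to form them. There, among all 468 genes, replicate 3 was highest for 51.1%, replicate 2 was lowest for 59% and replicate 2 was highest for 22.9%.

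**Figure D4:**
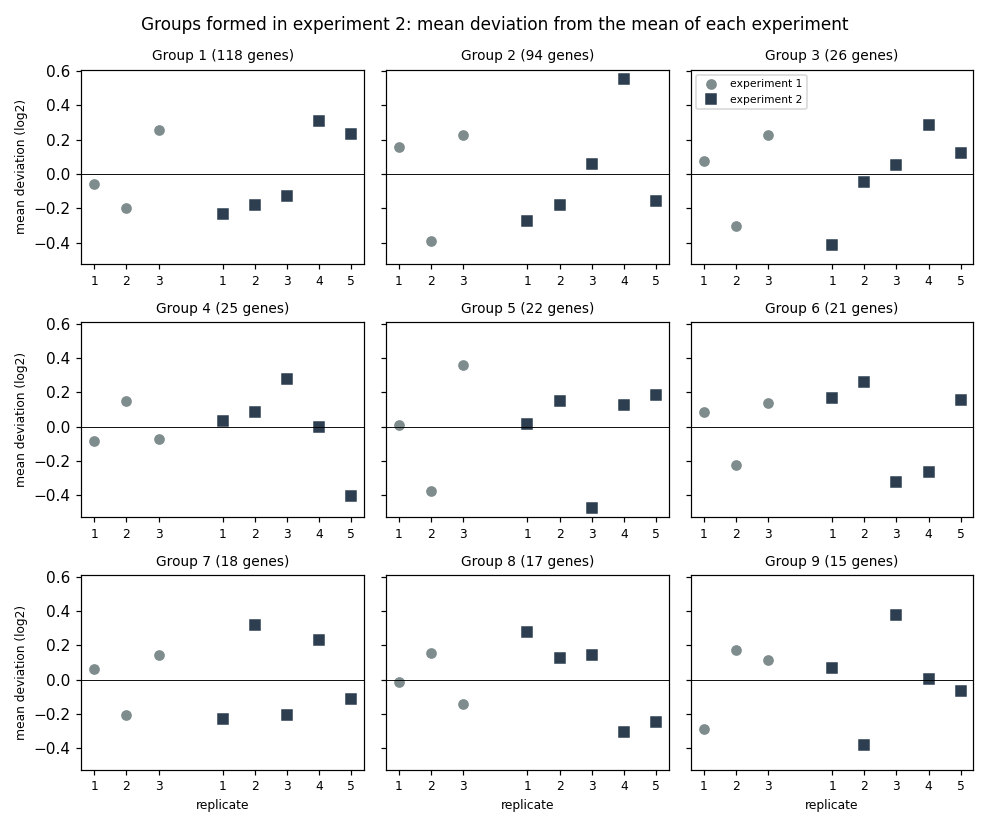
Mean deviation, in log2 units, of each of 9 gene groups in the 3 animals of experiment 1 (circles, not used to form the groups) and the 5 animals of experiment 2 (squares). Group 2 reaches 0.56 in replicate 4 of experiment 2, and group 5 falls to -0.47 in replicate 3.

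The largest group held 118 genes that were high in replicates 4 and 5 of experiment 2, with mean deviations of -0.23, -0.18, -0.13, 0.31 and 0.24. Closest to its mean were Cbx3, a protein of silent chromatin, Rock1, a kinase of the cytoskeleton, the splicing factor Srsf10, Homer2, Cir1 and Ppil4. The group held 2 of 13 glucocorticoid and metal responsive genes, Mt2 and the glucocorticoid induced chaperone Fkbp5. Of 16 clock genes it held 2, among them Per1. The slow contractile, fatty acid, macrophage, extracellular matrix, tendon and endothelial lists each gave it 1 gene. The kinase Clk1 and the splicing factors Srsf5 and Rbm25, which like Fkbp5 were picked after their values were seen, were in it as well; Srsf5 was measured at 9.83, 9.75, 9.98, 10.29 and 10.48. Replicate 3 was highest in experiment 1 for 95 of the 118 genes.

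The next group held 94 genes, all highest in replicate 4 of experiment 2, with mean deviations of -0.28, -0.18, 0.06, 0.56 and -0.16. It took in 9 of the 19 adipocyte genes, Adipoq, Cidec, Plin1, Pck1, Lipe, Retn, Thrsp, Acaca and Pparg, the master regulator of fat cell formation. Of those 19 genes, 13 were among the 468 clustered, of which the group held 94. Of 16 slow fibre genes 7 were clustered, and the group held 3, Tnnc1, Csrp3 and Ankrd2. It also held Alas2, the haem synthesis enzyme of red cells. Of the 94 genes 75 were lowest in replicate 2 in experiment 1. When the clustering was repeated without replicate 4 of experiment 2, the group that held Adipoq had 50 genes, 16 of them from these 94.

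A group of 26 genes was lowest in replicate 1 of experiment 2 for all 26 and held Myh7, Atp2a2, the slow troponin T Tnnt1, Sgk1, Per3, the desaturase Scd1 and the kinases and enzymes Clk4, Pde7a, Hsdl2 and Cth. In experiment 1 replicate 2 was lowest for 20 of them. A group of 25 genes was lowest in replicate 5 for all 25. Closest to its mean among the named genes were, in order, Enho, Palm3, C2cd4b, Mocs3, the ribosomal gene Rplp2 and Pfkfb3, which controls the rate of glycolysis. Pfkfb3 was measured at 9.86, 9.69, 10.41, 9.40 and 8.83 in experiment 2. In experiment 1 replicate 2 was highest for 17 of these 25.

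A group of 22 genes had its lowest value in replicate 3 of experiment 2 for all 22. It joined the class II genes Cd74, H2-Aa and H2-Ab1 with matrix and tendon genes, the proteoglycans Lum and Kera, the matricellular protein Postn, Tnmd and Col12a1, and with the lysozyme Lyz1. In experiment 1 replicate 3 was highest for 18 and replicate 2 lowest for 18. A separate group of 21 genes held 8 of the 23 matrix genes, Col1a1, Col1a2, Col3a1, Col6a3, Fmod, Fn1, Mmp2 and Sparc, and was low in both replicates 3 and 4 of experiment 2 (mean deviations -0.32 and -0.26, against 0.16 to 0.26 in the others). Of the 23 matrix genes 11 were among the 468 clustered, of which this group held 21. In experiment 1 this group had replicate 3 highest for 10, replicate 1 for 6 and replicate 2 for 5.

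The remaining groups were smaller. One of 18 genes with Ankrd1, a stress gene of muscle, the versican gene Vcan and Adamts1, which cleaves versican, was high in replicates 2 and 4 of experiment 2. One of 17 genes with the immediate early gene Fos was high in replicate 1, for 15 genes, and low in replicates 4 and 5. One of 15 genes with Glrx3, Slc43a1 and Dusp12 was lowest in replicate 2 for all 15.

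Finally, 14 pairs of genes with a known relation were tested over the 8 animals, on deviations from the mean of each experiment, by an exact permutation of the animals within each experiment (720 orderings, smallest p 0.00139). The pairs were chosen with earlier results of these data known, so the p-values do not come from pairs fixed in advance. All p-values are two-sided and were adjusted over the 14 pairs. Of these, 6 pairs had an adjusted p under 0.05; by Spearman's rho the number was 0, and 7 had an unadjusted p under 0.05. Each experiment has too few animals for a correlation of its own, so the number of animal pairs in the same order is given instead.

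Slow fibre genes were the most closely tied. Myh7 and Tnni1 had r = 0.99 (exact permutation p = 0.00278, adjusted p = 0.0146; rho = 0.92, p = 0.0194, adjusted p = 0.0681), with the same order in 3 of 3 animal pairs of experiment 1 and 9 of 10 of experiment 2. Without the 2 arrays farthest from the median of Myh7, r was 0.97. Myh7 and Atp2a2 had r = 0.98 with the same p-values and orders, and r = 0.96 without those 2 arrays.

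Myh7 and the fast Myh4 had r = -0.70 (exact permutation p = 0.0819, adjusted p = 0.127) and did not pass. With quantile normalization that r turned to 0.14. The pair of fast chains Myh2 and Myh4 likewise went from r = -0.65 (adjusted p = 0.16) to 0.32, so neither direction holds under both scalings.

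In fat cell genes, Adipoq and the lipid droplet coat gene Plin1 had r = 0.96 (exact permutation p = 0.00417, adjusted p = 0.0146; rho = 0.92, p = 0.0194, adjusted p = 0.0681), with the same order in 10 of 10 animal pairs of experiment 2 and 2 of 3 of experiment 1. Without replicate 4 of experiment 2 and replicate 2 of experiment 1, the 2 farthest arrays, r was 0.84. Adipoq and Scd1, which desaturates fatty acids, had r = 0.80 (exact permutation p = 0.00833, adjusted p = 0.0233; rho = 0.75, p = 0.0889, adjusted p = 0.207). That relation rests on the same 2 arrays, since r was 0.32 without them, and it was 0.40 (exact permutation adjusted p = 0.444) with the interquartile range of the arrays regressed out. With quantile normalization r was 0.78 (exact permutation adjusted p = 0.0713).

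Tnmd and Fmod had r = 0.88 (exact permutation p = 0.0139, adjusted p = 0.0324; rho = 0.83, p = 0.05, adjusted p = 0.14), and r = 0.53 without replicate 3 of experiment 2 and replicate 2 of experiment 1, so it rests on these. With the interquartile range of the arrays regressed out it was 0.83 and did not pass (exact permutation adjusted p = 0.124). The 2 collagen chains Col1a1 and Col3a1 had r = 0.79 (exact permutation p = 0.0972, adjusted p = 0.136), and the sign turned to -0.65 without the 2 farthest arrays. With the interquartile range of the arrays regressed out it was 0.98 and passed (exact permutation adjusted p = 0.0428). The immediate early genes Fos and Egr1 had r = 0.79 (adjusted p = 0.0611 by the exact test). The macrophage genes Cd68 and Csf1r had r = 0.74 (adjusted p = 0.16 by the exact test), and the muscle ubiquitin ligases Fbxo32 and Trim63, which mark proteins for breakdown during wasting, had r = 0.59 (adjusted p = 0.176 by the exact test). These 3 pairs did not pass.

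**Figure D5:**
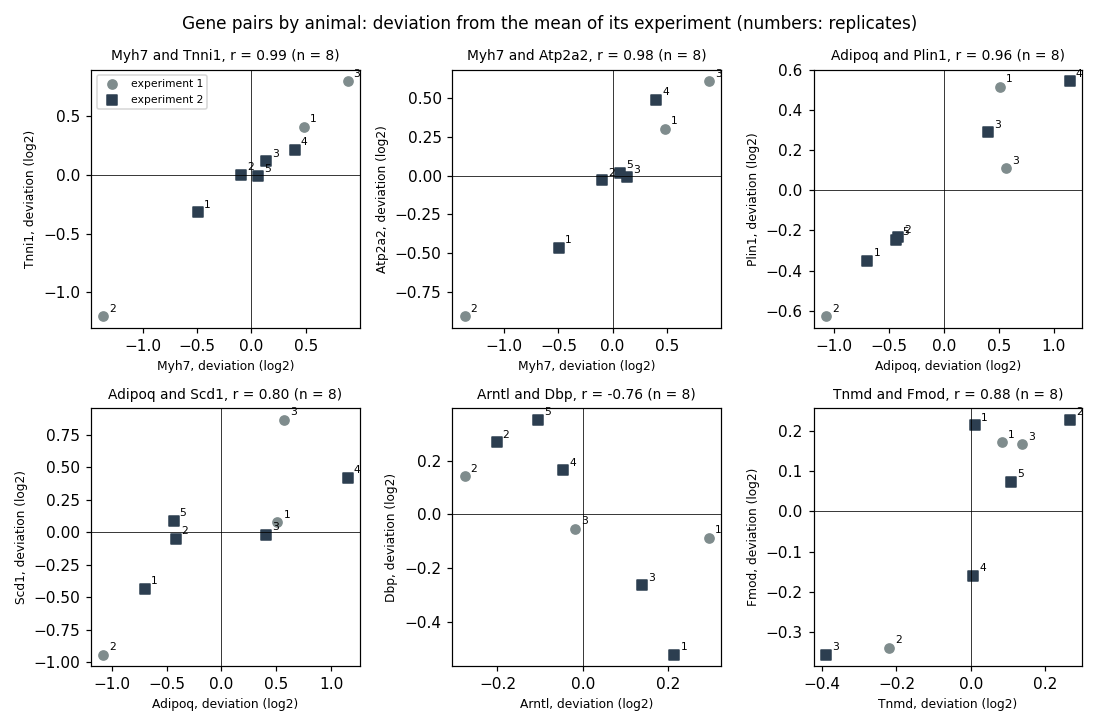
Deviations, in log2 units from the mean of each experiment, of the 6 gene pairs whose exact permutation test passed over 8 animals; circles are experiment 1, squares experiment 2, and numbers are replicates. Replicate 2 of experiment 1 lies at the lower left for the slow fibre and fat cell pairs, and Arntl and Dbp run in opposite directions (r = -0.76).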

How the data were processed

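RNA of 8 control quadriceps was measured on Affymetrix arrays. Per the submitters' processing notes the authors used RMA, and limma 3.4.4 and R 2.11.1 are named without a role. The deposited values are log2 values; base 2 was taken from their range. The genome build of the probes and the normalization across experiments are not given in the sources used here.

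Of 35556 rows, 21789 have 1 gene symbol, 1621 several and 12146 none; 21698 matched RefSeq by gene number (GRCm38.p6). Rows with 1 symbol were kept, and for 999 genes with several rows the brightest, which left 19938 genes. All values were computed in Python 3.11.15 with numpy 2.4.6, pandas 2.3.3 and scipy 1.17.1, and the scripts were tested on simulated data.

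Genes were ranked within each experiment by mean and, above the median in both experiments, by SD. Correlations of 14 of 16 listed pairs were tested by exact permutation with Benjamini-Hochberg adjustment. Alternatives were other scalings, row rules, limits, cluster settings and each array left out. Named genes are the 20 brightest, the 20 of largest shared spread, up to 4 of largest SD and 4 of highest level per list, those closest to each group's mean, members of a list held by a group, and pair genes; exceptions are stated. Clone names and small RNAs were counted, not named. Among the 20 brightest, 1 gene is not reported here. The members, the 32 lists and the pairs were chosen with earlier results of these data known. The labels call the arrays biological replicates from separate mice.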

Additional observations from a re-analysis of the deposited data

Results flagged for a closer look

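Dixon's test at its 95% critical value (0.71 for 5 arrays) was applied to 156 results of experiment 2, namely each gene named above, each gene list and the arrays' median and interquartile range. Chance alone passes about 1 in 20 groups that were not picked by their values. Many of the named genes were picked by their spread or their group in these same 5 arrays, so that rate need not hold. Of the 156 results 10 passed, and the number is no result in itself. Groups of 3, as in experiment 1, were not tested. The gap is the distance of the extreme array to its neighbour as a share of the whole range.

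Replicate 4 stood far above the other animals for Ucp1, at 6.80 against 4.69 to 5.21 (gap 0.753), and for Ankrd2, a stretch responsive gene of slow fibres, at 11.06 against 10.19 to 10.41 (gap 0.751). Replicate 3 stood below the others for H2-Ab1, at 6.78 against 7.51 to 7.61 (gap 0.873), for Thbs4, a matrix gene of tendon, at 9.85 against 10.17 to 10.24 (gap 0.830), for the class II list, at -0.30 against 0.06 to 0.09 (gap 0.926), and for the macrophage and myeloid list, at -0.19 against 0.02 to 0.09 (gap 0.761).

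Replicate 5 stood below the others for the ribosomal gene Rplp2, at 7.23 against 7.74 to 7.88 (gap 0.785), for the cytoplasmic ribosomal protein list, at -0.18 against 0.01 to 0.08 (gap 0.748), and for Ldha, at 13.19 against 13.38 to 13.45 (gap 0.717). It stood above the others for the endothelial list, at 0.06 against values from -0.02 to below 0 (gap 0.772).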

How the results depend on the processing

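The 155 bright genes shared by both experiments became 153 to 157 with each array left out and 320 with the top 2%, and all 155 remained under both other scalings. The 119 shared variable genes became 87 to 122 with each array left out, 246 with the top 10%, 210 without the filter on dim genes and 58 among genes in the top 25% of level in both experiments. The 356 grouped genes became 362 to 442 with each array left out, 194 with complete linkage and 810 with the top 10% by SD. Of the 94 genes grouped with Adipoq, 49 stayed with it under quantile normalization. The 9 lists with a range of at least 0.3 in experiment 2 became 5 to 9, with 5 without replicate 4. The 6 pairs that passed became 0 to 5 with each array left out, where 240 or 144 orderings allow no p under 0.00417 or 0.00694; they became 0 without the 2 farthest arrays, 4 with quantile normalization (Arntl with Dbp and Adipoq with Scd1 lost) and 5 with the interquartile range regressed out (Adipoq with Scd1 and Tnmd with Fmod lost, Col1a1 with Col3a1 gained). The sign turned for Myh7 and Myh4 (0.14) and for Myh2 and Myh4 (0.32) with quantile normalization, and for Col1a1 and Col3a1 (-0.65) and Cd68 and Csf1r (-0.051) without the 2 farthest arrays; the cause was not tested. Over all settings r ran from 0.96 to 0.995 for Myh7 and Tnni1, from 0.838 to 0.993 for Adipoq and Plin1 and from -0.913 to -0.712 for Arntl and Dbp. Of 302 pair correlations and list ranges under an alternative, 241 kept their call or moved by less than the spread between animals, 46 lost the call and 2 gained it. The 241 include ranges of experiment 2 with an array of experiment 1 left out, which cannot change. They also include pairs that passed neither before nor under the alternative. No paired analysis was possible because the results come from no comparison between groups. Signal over background was not analysed here.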
